A study of Mus musculus with 18 samples.

Results

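The response of Nrf1-KO mouse fibroblasts to 24 h of carfilzomib (CFZ) was followed over all expressed genes. It was read from 6 of the 18 libraries of the study, 3 from Nrf1-KO cells in 200 nM CFZ for 24 h and 3 from Nrf1-KO cells in the vehicle, DMSO, chosen by genotype, agent and time in the sample labels. The cells are NIH-3T3, an immortalized line of mouse embryonic fibroblasts, and CFZ is a drug that binds the proteasome irreversibly. Both groups carry the same knockout of the gene the study calls Nrf1, which the count table lists as Nfe2l1. The study worked with 1 knockout line, so what belongs to the missing gene and what belongs to that line cannot be told apart. The time in DMSO is not given in the sources used here, so the effect of CFZ and of a different time in culture cannot be told apart either. The study describes its 3 replicates as biological. For the comparisons that show where this response differs, the Nrf1-KO libraries at 6 h of 200 nM CFZ and the WT libraries in DMSO and at 24 h of CFZ were used, with 3 libraries each. RNA was measured in bulk, so fewer cells of a kind and less RNA per cell cannot be told apart.

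The proteasome is the barrel-shaped protease that removes ubiquitin-tagged proteins, built of a 20S core capped by 19S regulatory particles. NFE2L1 is a membrane-anchored transcription factor of the endoplasmic reticulum (ER) that is degraded in resting cells and, when proteasomes are blocked, is released and drives the genes of proteasome subunits. Blocked proteasomes also leave misfolded proteins, to which cells are known to answer with heat shock factor 1 and its chaperones, with the unfolded protein response (UPR) of the ER, with the ATF4-CHOP axis of the integrated stress response, and with the NRF2 antioxidant program. Each of these programs is known by short DNA motifs near the start of its genes.

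The promoters printed here were chosen among genes that changed at least 2-fold after CFZ, and because each holds the motif known for its program. They are RefSeq promoters on GRCm38.p6, read 5′ to 3′ on the strand of the gene from 250 bases before to 50 bases after the start, and the capitals mark the match. Hspa1b encodes the stress-induced HSP70 chaperone and lies on the minus strand (chr17:34959189-34959488). Dnaja1, an HSP40 partner of HSP70, lies on the plus strand (chr4:40722218-40722517), and 1 of its 3 listed promoters is shown. In both, the capitals mark 2 inverted units of the heat shock element (GAANNTTC), starting at -104 and -124.
Hspa1b: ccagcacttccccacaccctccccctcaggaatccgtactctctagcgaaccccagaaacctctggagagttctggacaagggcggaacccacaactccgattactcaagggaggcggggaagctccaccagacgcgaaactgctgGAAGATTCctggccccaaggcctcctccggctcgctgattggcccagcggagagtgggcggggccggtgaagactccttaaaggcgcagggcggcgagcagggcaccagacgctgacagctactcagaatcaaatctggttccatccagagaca
Dnaja1: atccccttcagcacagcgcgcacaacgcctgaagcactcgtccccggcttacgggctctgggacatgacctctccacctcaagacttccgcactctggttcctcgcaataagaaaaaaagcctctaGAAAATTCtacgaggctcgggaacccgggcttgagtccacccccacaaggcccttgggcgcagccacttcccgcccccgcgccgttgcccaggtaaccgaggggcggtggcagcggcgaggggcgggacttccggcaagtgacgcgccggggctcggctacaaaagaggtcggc
Atf3, a stress-induced transcription factor, lies on the minus strand (chr1:191183284-191183583) and holds the C/EBP-ATF response element (TGATGCAA) at -110, on the strand opposite to the one printed. Adrm1, the ubiquitin receptor RPN13 of the 19S particle, lies on the plus strand (chr2:180171338-180171637) and holds the core of the antioxidant response element (TGACNNNGC), the motif that NFE2L1 and NRF2 share, at -162.
Atf3: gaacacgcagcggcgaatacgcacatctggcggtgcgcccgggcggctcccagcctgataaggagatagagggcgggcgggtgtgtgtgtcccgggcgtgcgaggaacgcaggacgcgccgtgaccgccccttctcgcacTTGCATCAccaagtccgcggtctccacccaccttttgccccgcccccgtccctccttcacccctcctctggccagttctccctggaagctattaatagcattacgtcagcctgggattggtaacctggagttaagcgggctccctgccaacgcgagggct
Adrm1: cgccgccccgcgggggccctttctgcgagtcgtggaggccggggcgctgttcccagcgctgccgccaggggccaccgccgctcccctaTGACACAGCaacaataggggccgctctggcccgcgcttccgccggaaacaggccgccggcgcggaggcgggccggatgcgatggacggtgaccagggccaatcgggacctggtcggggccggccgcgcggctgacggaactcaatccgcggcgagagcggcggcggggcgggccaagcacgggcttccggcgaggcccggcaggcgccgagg
Plk1, a kinase of mitotic entry and exit, lies on the plus strand (chr7:122159185-122159484) and Ccnb2, a B-type cyclin, on the minus strand (chr9:70421505-70421804). Their capitals mark the cell cycle homology region (TTTGAA), at +31 in Plk1 and at -167 and +5 in Ccnb2.
Plk1: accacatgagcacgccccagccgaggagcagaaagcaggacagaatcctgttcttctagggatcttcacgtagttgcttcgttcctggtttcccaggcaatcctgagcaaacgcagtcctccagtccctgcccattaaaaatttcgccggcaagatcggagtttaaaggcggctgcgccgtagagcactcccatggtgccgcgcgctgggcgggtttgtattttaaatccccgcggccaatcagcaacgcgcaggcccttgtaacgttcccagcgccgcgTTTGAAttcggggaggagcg
Ccnb2: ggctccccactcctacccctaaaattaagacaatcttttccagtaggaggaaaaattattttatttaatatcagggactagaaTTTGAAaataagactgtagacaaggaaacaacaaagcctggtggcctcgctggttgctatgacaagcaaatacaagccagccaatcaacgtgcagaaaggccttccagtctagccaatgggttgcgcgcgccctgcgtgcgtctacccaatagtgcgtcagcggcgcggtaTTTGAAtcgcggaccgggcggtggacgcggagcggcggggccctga

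The motifs were counted on both strands of 11254 such promoters, of 300 bases each, which belong to 8781 of the genes tested. The cell cycle homology region was in 20 of 27 promoters of mitosis and kinetochore genes (74.1%), against 11.8% of all promoters, 16.3% of those of genes at least 2-fold lower after CFZ and 10.5% of those of genes at least 2-fold higher. The heat shock element was in 8 of 29 promoters of HSP70, HSP40 and HSP110 genes (27.6%) against 5.93% of all, and the C/EBP-ATF element was in 5 of 22 promoters of ATF4-CHOP axis genes (22.7%) against 0.622% of all. The antioxidant core was in 9 of 29 promoters of 21 NRF2-type genes (31.0%), but its shares in the 20S core (16.7%, 2 of 12) and the 19S particle (18.8%, 3 of 16) lay near the 14.4% of all promoters. Its shares in the other lists counted ran from 10.0% in small heat shock protein and BAG genes to 22.2% in mitosis and HSP90 genes. Between promoters of genes at least 2-fold higher and at least 2-fold lower, the antioxidant core stood at 14.9% and 14%, the heat shock element at 7.74% and 6.27%, the C/EBP-ATF element at 1.06% and 0.558%, and a site of the cell cycle factor E2F (TTTCCCGC) at 1.06% and 2.79%. Another form of the E2F site (TTTGGCGC) stood at 0.896% and 0.931%, near the 0.96% of all promoters. The CCAAT box, the site of the factor NF-Y, was in 78.8% of promoters of ER folding genes, 77.8% of mitosis genes and 75.0% of sterol and fatty acid synthesis genes, against 38.4% of all. A match is a description of these letters and not of binding, and overlapping matches of different motifs were each counted.

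**Figure D1:**
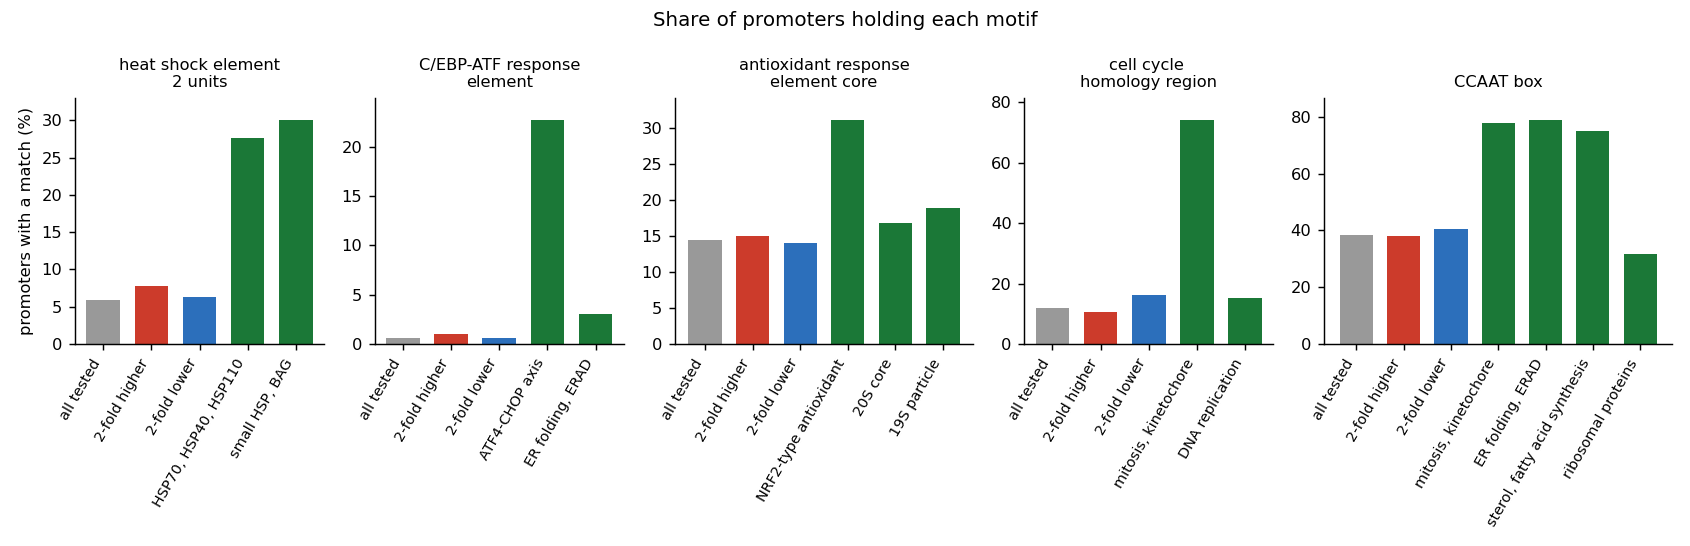
Bars give the percent of promoters of 300 bases that hold each of 5 motifs on either strand (linear axes from 0), for all genes tested (grey), genes at least 2-fold higher (red) or lower (blue) after 24 h of CFZ in Nrf1-KO cells, and gene lists (green). The cell cycle homology region stands at 74.1% in mitosis genes against 11.8% of all promoters, while the antioxidant core in proteasome genes (16.7% and 18.8%) stays near the 14.4% of all.

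The targeted gene was read first. Nfe2l1 (chromosome 11 of GRCm38, from 96817414 to 96829968, minus strand) stood at 174, 185 and 181 CPM in DMSO and 209.5, 202 and 201 CPM after CFZ, while the 3 WT libraries in DMSO stood at 456.9, 437 and 449 CPM. Levels are CPM values, the reads of a gene per 1000000 reads of its library, scaled by edgeR's TMM method. The 2 lines did not overlap, and reads on the gene remained in the knockout line. The position of the knockout is not given in the sources used here, so reads outside it check nothing. Nfe2l1 was 0.18 higher on the log2 scale after CFZ (SE 0.0346, edgeR adjusted p = 1.64e-05), but its difference was -0.001 when libraries were scaled by total counts alone (adjusted p = 0.982). Of 8 fibroblast markers all were detected in each library, and their summed level ran from 27300 to 33600 CPM in DMSO and from 10800 to 12800 CPM after CFZ, and 7 of the 8 were lower, all but Vim, the filament protein vimentin. The 6 epithelial markers summed to between 69.6 and 71.0 CPM in DMSO and between 83.9 and 87.4 CPM after CFZ, with 3 of them at 0 counts in all 6 libraries. The 2 epithelial markers tested went opposite ways, with log2 fold changes of 0.55 for the keratin Krt14 and -4.87 for the cadherin Cdh1. Neural markers summed to between 9.48 and 10.3 CPM in DMSO and between 66.7 and 67.2 CPM after CFZ, carried by the tubulin Tubb3 (log2 fold change 2.78, edgeR adjusted p = 1.51e-26). Blood and macrophage markers summed to at most 1.97 CPM in DMSO and 6.77 CPM after CFZ, and endothelial markers to 1.25 and 4.66 CPM. Muscle markers summed to at most 1.5 and 2.54 CPM and adipocyte markers to 0.656 and 0.824 CPM. The part of these markers in the results was not tested. Total counts ran from 14231065 to 23917081 in the DMSO libraries and from 14847906 to 18923605 in the CFZ libraries. Replicates were not duplicates, as counts differed by more than sampling noise within each group, with a chi-square per degree of freedom of 2.505 to 5.504 between DMSO libraries and 3.292 to 8.469 between CFZ libraries. The 10 most counted genes took 5.586 to 6.078% of counts in DMSO and 9.275 to 9.571% after CFZ.

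Genes were compared by edgeR's quasi-likelihood test with Benjamini-Hochberg adjustment, and a gene is called higher or lower where the adjusted p was under 0.05. After 24 h of CFZ 5226 of 11762 genes tested were higher (44.4%) and 4829 lower (41.1%). In all 85.5% were called, at a biological coefficient of variation between replicates of 3.131%, and counts of members are read against these shares. At least 2-fold higher were 1347 genes (11.5%) and at least 2-fold lower 1790 (15.2%). At least 4-fold higher were 345 (2.93%) and at least 4-fold lower 553 (4.7%). The groups did not overlap for 5147 higher genes (43.8%) and 4766 lower genes (40.5%). Directions are relative to the TMM scaling, under which the median gene stood at 0.03 on the log2 scale. Upper-quartile scaling moved that median by -0.108 and scaling by total counts alone by -0.182, and with the latter 41.6% of the genes called were higher, in place of 52.0%. Both shifts are downward, so rises smaller than these have no settled direction.

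**Figure D2:**
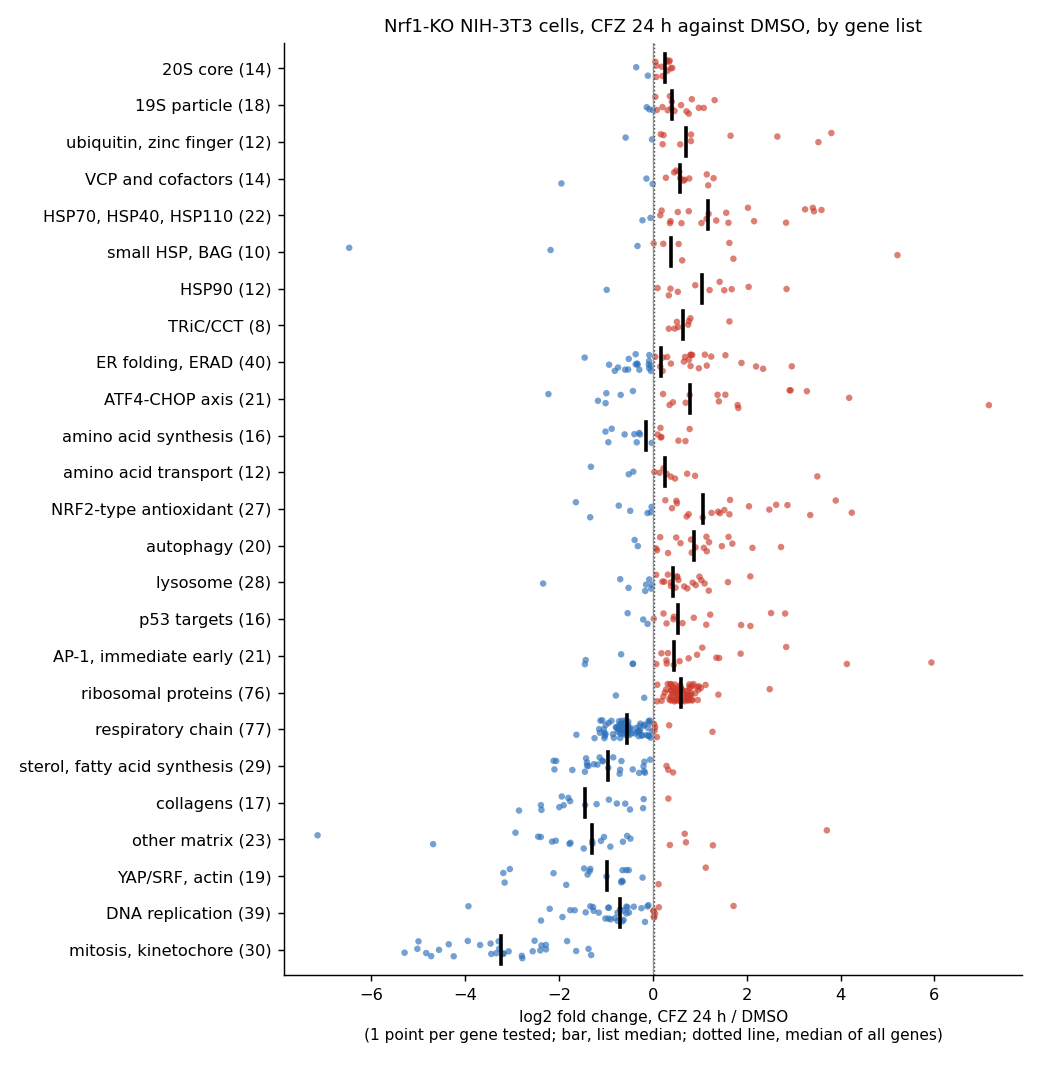
Each point is 1 gene tested, its log2 fold change of CFZ 24 h over DMSO in Nrf1-KO cells on the x axis (red above 0, blue below), in 25 gene lists with the number of genes tested in brackets; bars are list medians and the dotted line the median of all genes. HSP70-type, HSP90 and NRF2-type lists have medians above 1, and all 30 mitosis genes lie left of -1.

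The counts themselves show where the RNA of the treated cells went. Hspa8, the constitutive HSP70 chaperone HSC70, held 0.165, 0.167 and 0.178% of all counts in DMSO and 1.74, 1.78 and 1.91% after CFZ. Hsp90ab1, the constitutive HSP90, went from a mean of 0.395% to 1.12% and Cryab, the small heat shock protein αB-crystallin, from 0.0229% to 0.747%. Nid1, the basement membrane protein nidogen, went from 0.072% to 0.829%, and Hspa5, the ER chaperone BiP, from 0.0729% to 0.5%. These 5 were among the 10 genes with the largest share of counts after CFZ, with the translation factors Eef1a1 (2.03%) and Eef2 (0.832%). The share of reads is not a share of molecules, since long transcripts give more reads.

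Where the mean count reached 50 and the groups did not overlap, the 10 with the largest rise were Skint7, Rnf183, Prl2c2, Atf3, Prg4, Stmn4, Ier3, Slc35f1, Pyhin1 and Dusp4. Skint7, a member of an immunoglobulin-like family known from skin and thymus, had no count in any DMSO library and 0, 0 and 0 CPM in DMSO and 21.3, 21.6 and 26.5 CPM after CFZ, at least 438-fold higher against a floor of 3 counts over the group. Rnf183, an ER-membrane ubiquitin ligase known from kidney, had 1 count in DMSO in all and 403 after CFZ, a ratio of 478 with a 95% counting interval from 85.2 to 18900. Prl2c2, or proliferin, a secreted hormone of the prolactin family known from growing 3T3 cells, stood at 2.1, 2.61 and 2.2 CPM in DMSO and 477, 522 and 535 CPM after CFZ (log2 fold change 7.8, SE 0.0844, edgeR adjusted p = 6.5e-36), and 66.4% of its 100-base stretches are shared with close copies such as Prl2c3, so its reads cannot be placed with certainty. Intervals and floors cover counting error only.

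Atf3 stood at 3.09, 3.06 and 3.08 CPM in DMSO and 417, 433 and 474 CPM after CFZ (log2 fold change 7.16, SE 0.0704, edgeR adjusted p = 6.35e-37), with little spread within either group. Ier3, an early response gene that modulates survival, stood at 15.3, 15 and 14.2 CPM in DMSO and 906, 912 and 889 CPM after CFZ (log2 fold change 5.94, SE 0.0423, edgeR adjusted p = 2.14e-40), and Dusp4, a phosphatase that switches off ERK and JNK kinases, at 2.1, 2.23 and 2.2 CPM in DMSO and 87.2, 91.5 and 82.2 CPM after CFZ (log2 fold change 5.31, SE 0.091, edgeR adjusted p = 9.41e-31). These groups lay far apart. The other genes of the set were low in DMSO, at most 0.382 CPM, and rose with log2 fold changes of 6.3 for Prg4, the joint lubricant lubricin, 6.15 for Stmn4, a microtubule regulator of neurons, 5.7 for Slc35f1, a member of a nucleotide sugar transporter family, and 5.7 for Pyhin1, of the interferon-inducible family of nuclear proteins.

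The 10 with the largest fall were Galnt15, Eln, Cdh26, Igf1, Ankle1, Wisp2, Cd248, Aff3, Lgr5 and Cenpf. Several encode secreted or surface proteins. Eln, the elastic fibre protein elastin, stood at 127, 117 and 123 CPM in DMSO and 1.13, 1.17 and 0.254 CPM after CFZ (log2 fold change -7.15, SE 0.119, edgeR adjusted p = 4e-31), and Cd248, the stromal surface protein endosialin, at 312, 298 and 282 CPM in DMSO and 6.27, 5.05 and 6.34 CPM after CFZ (log2 fold change -5.67, SE 0.0603, edgeR adjusted p = 4.22e-36). Igf1, the growth factor, stood at 23, 22.6 and 25.7 CPM in DMSO and 0.211, 0.111 and 0.254 CPM after CFZ (log2 fold change -6.94, SE 0.199, edgeR adjusted p = 9.52e-25). In each case no treated library came near a DMSO library. Galnt15, an enzyme that starts O-linked sugar chains, had a log2 fold change of -7.25, the cadherin Cdh26 of -7.0, Wisp2, a matricellular protein of the CCN family, of -5.78, and Lgr5, a receptor for R-spondins in Wnt signaling, of -5.39. Ankle1, a nuclease that cuts branched DNA, stood at -6.37, Aff3, a nuclear factor of the super elongation complex family, at -5.56, and Cenpf, a large kinetochore and microtubule protein, at -5.29. All of these fell with groups that did not overlap.

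No gene of the 20S proteasome core rose or fell by 2-fold in Nrf1-KO cells, and the 19S particle held larger rises. Of 14 20S core genes 9 were higher, 1 was lower and 4 did not pass, with a median log2 fold change of 0.25 beside 0.03 over all genes tested. Of 18 genes of the 19S particle 14 were higher, 2 of them at least 2-fold, and 2 lower, with a median of 0.40. With scaling by total counts alone 7 core genes were higher and 5 lower (median 0.068), and 12 genes of the 19S particle were higher and 5 lower (median 0.215), so the direction for several core genes depends on the scaling. Psma4, an α subunit of the core, stood at 114, 117 and 123 CPM in DMSO and 87.9, 90.5 and 99 CPM after CFZ (log2 fold change -0.36, SE 0.0415, edgeR adjusted p = 2.6e-09), and all treated libraries lay below all DMSO libraries. Psmb6, the β1 subunit with caspase-like activity, went the other way, at 104, 107 and 108 CPM in DMSO and 134, 140.2 and 150.0 CPM after CFZ (log2 fold change 0.41, SE 0.0379, edgeR adjusted p = 1.23e-11). Psmb5, the β5 subunit that CFZ binds, stood at 41.8, 46.5 and 41.5 CPM in DMSO and 35.7, 39.6 and 44.5 CPM after CFZ and did not pass (log2 fold change -0.11, SE 0.065, edgeR adjusted p = 0.125). Its groups overlapped, and it was called lower with upper-quartile scaling (-0.215), with total counts alone (-0.29), with no expression filter (-0.157) and without CFZ replicate 3 (-0.22).

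In the 19S particle the members differed more. Psmd11, a lid subunit, showed the largest rise of all proteasome subunits listed, with 107, 111 and 108 CPM in DMSO and 269.8, 273 and 269 CPM after CFZ (log2 fold change 1.32, SE 0.0335, edgeR adjusted p = 4.04e-26). Adrm1, whose promoter is shown above, had the next largest at 1.08 on the log2 scale (SE 0.0398, edgeR adjusted p = 6.73e-22). Psmd4, the ubiquitin receptor RPN10, rose from 95.7 ± 2.88 to 189 ± 13.9 CPM (log2 fold change 0.98, SE 0.0455, edgeR adjusted p = 3.83e-19), Psmd14, the lid deubiquitinase RPN11, from 78 ± 3.78 to 128 ± 9.3 CPM (log2 fold change 0.71, edgeR adjusted p = 1.08e-15) and Psmc4, an ATPase of the base, from 73.5 ± 1.43 to 111 ± 0.76 CPM (log2 fold change 0.60, edgeR adjusted p = 2.43e-16). Errors are SD of n = 3 libraries. Psmd6, another lid subunit, stood slightly lower, from 82.8 ± 2.14 to 75.5 ± 4.43 CPM (log2 fold change -0.13, edgeR adjusted p = 0.00545). Of 8 assembly chaperones 2 were higher and 4 lower. Psmg1, the chaperone PAC1 that starts the core's α ring, fell from 21.1 ± 1.46 to 8.62 ± 0.331 CPM (log2 fold change -1.3, SE 0.0888, edgeR adjusted p = 9.09e-15), while Psmd9, which helps the base assemble, rose by 0.88 on the log2 scale. Pomp, the maturation factor of the core, was 0.26 higher, which did not pass with scaling by total counts alone (0.08, adjusted p = 0.108). Among 7 activators, inhibitors and immunoproteasome subunits, of which 4 were higher and 3 lower and whose median of 0.15 turned to -0.033 with total counts alone, Psmf1, the inhibitor PI31, rose from 27.3 ± 0.447 to 65.2 ± 2.58 CPM, Psme4, the activator PA200, rose from 207 ± 5.74 to 357 ± 12.3 CPM, and the immune subunit Psmb9 was low and fell from 2.19 ± 0.0774 to 1.21 ± 0.247 CPM.

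Genes of ubiquitin supply rose. Of 12 genes of ubiquitin, its E1 enzymes, proteasome deubiquitinases and stress-induced zinc finger proteins 10 were higher, 4 of them at least 2-fold, and 1 lower (median 0.70). Ubb, a polyubiquitin gene, stood at 125, 123 and 125 CPM in DMSO and 1389, 1384 and 1529 CPM after CFZ (log2 fold change 3.53, SE 0.0491, edgeR adjusted p = 4.62e-33). Zfand2a, the zinc finger protein AIRAP that joins proteasomes under stress, stood at 31.9, 34.2 and 32 CPM in DMSO and 452, 462 and 453 CPM after CFZ (log2 fold change 3.8, SE 0.0382, edgeR adjusted p = 9.5e-37), whereas its relative Zfand2b fell from 22 ± 0.724 to 14.7 ± 0.719 CPM. For Ubb and Zfand2a every treated library lay far above every DMSO library, but 52.4% of the 100-base stretches of Ubb are shared with pseudogenes. Of 14 genes of VCP, the segregase p97 that pulls proteins out of complexes and membranes, its cofactors and the enzymes that process NFE2L1, 11 were higher and 2 lower. Ufd1l, a cofactor of VCP, rose from 55 ± 0.882 to 135 ± 7.97 CPM (log2 fold change 1.29, SE 0.0427, edgeR adjusted p = 4.22e-23) and Vcp, with 51.5% of its stretches shared with a related sequence, rose from 418 ± 22.1 to 571 ± 30.3 CPM (log2 fold change 0.45, edgeR adjusted p = 1.71e-12). Ngly1, the enzyme that removes sugar chains from NFE2L1 and other proteins leaving the ER, fell from 23.1 ± 0.516 to 6.05 ± 1.65 CPM (log2 fold change -1.95, SE 0.108, edgeR adjusted p = 3.88e-17). Among the list of Nfe2l1 and its relatives and partners 7 of 8 were higher, Nfe2l1 itself included, with Maff, a small Maf partner, rising from 8.11 ± 0.788 to 54.2 ± 2.59 CPM and Nfe2l2, which encodes NRF2, from 109.5 ± 1.3 to 152 ± 4.37 CPM. Keap1, the adaptor that sends NRF2 to degradation, fell from 55.4 ± 1.4 to 28.7 ± 0.399 CPM (log2 fold change -0.95, edgeR adjusted p = 7.24e-18).

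Chaperone genes of the heat shock program rose together. Of 22 cytosolic HSP70, HSP40 and HSP110 genes and heat shock factors 20 were higher, 13 at least 2-fold, and 1 lower (median 1.17). Hspa8 stood at 1542, 1541 and 1641 CPM in DMSO and 18170, 18700 and 20160 CPM after CFZ (log2 fold change 3.59, SE 0.04, edgeR adjusted p = 1.31e-35). Hspa1b stood at 38.1, 32.5 and 33.8 CPM in DMSO and 376, 379 and 368 CPM after CFZ (log2 fold change 3.43, SE 0.0445, edgeR adjusted p = 6.67e-34) and its near-copy Hspa1a at 2.69, 2.86 and 2.85 CPM in DMSO and 30.9, 28.9 and 30.2 CPM after CFZ (log2 fold change 3.41, SE 0.112, edgeR adjusted p = 3.51e-23). For all 3 genes the treated libraries lay close together and far above DMSO, but 49.9% of Hspa1b stretches of 100 bases are shared with Hspa1a and Hspa1l, and 62.8% of those of Hspa8 with pseudogenes, so the split of reads between copies is uncertain. Dnajb1, the HSP40 partner that drives disaggregation, rose from 79.5 ± 2.44 to 753 ± 32.2 CPM (log2 fold change 3.24, edgeR adjusted p = 1.43e-32) and Hsph1, the HSP110 exchange factor, from 337 ± 7.19 to 2408 ± 23.6 CPM (log2 fold change 2.84, edgeR adjusted p = 1.65e-34). Hspa14, a ribosome-bound HSP70, was the exception and fell from 60.3 ± 1.27 to 51.6 ± 1.53 CPM.

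Other chaperone families, TRiC/CCT apart, had members on both sides. Of 12 genes of HSP90 and its co-chaperones 11 were higher (median 1.05), led by Hsp90aa1, the inducible HSP90, at 827, 815 and 843 CPM in DMSO and 5841, 5938 and 6118 CPM after CFZ (log2 fold change 2.85, SE 0.0356, edgeR adjusted p = 2.54e-34), with 47.5% of its stretches shared with pseudogenes. Chordc1, a co-chaperone of HSP90, rose from 73.5 ± 1.01 to 170.0 ± 13.3 CPM, while Fkbp5, a co-chaperone of steroid receptors, fell from 74.4 ± 3.4 to 37.6 ± 2.93 CPM. All 8 subunits of TRiC/CCT, the ring that folds actin and tubulin, were higher (median 0.64), with Cct2 rising most (from 479 ± 3.35 to 1484 ± 61.1 CPM). Of 10 small heat shock proteins and BAG co-chaperones 6 were higher and 3 lower. Cryab stood at 206, 210.1 and 218 CPM in DMSO and 7415, 8066 and 8055 CPM after CFZ (log2 fold change 5.21, SE 0.0449, edgeR adjusted p = 3.36e-38), the largest change of any chaperone listed that had counts in both groups, and 17.0% of its exonic bases face the opposite-strand gene Hspb2. Bag3, the HSP70 co-chaperone of selective autophagy, rose from 92.2 ± 3.32 to 285 ± 15.8 CPM and Hspb8, its partner, from 98.8 ± 2.69 to 325 ± 17 CPM. Hspb7, a small heat shock protein of muscle, had 41 counts in DMSO and none after CFZ, at least 11.5-fold lower against a floor of 3 counts over the group. Among 13 mitochondrial chaperones and proteases 8 were higher and 3 lower, from Hspe1, the HSP10 lid of the mitochondrial chaperonin (1.95), to Spg7, the protease paraplegin (-1.2).

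**Figure D3:**
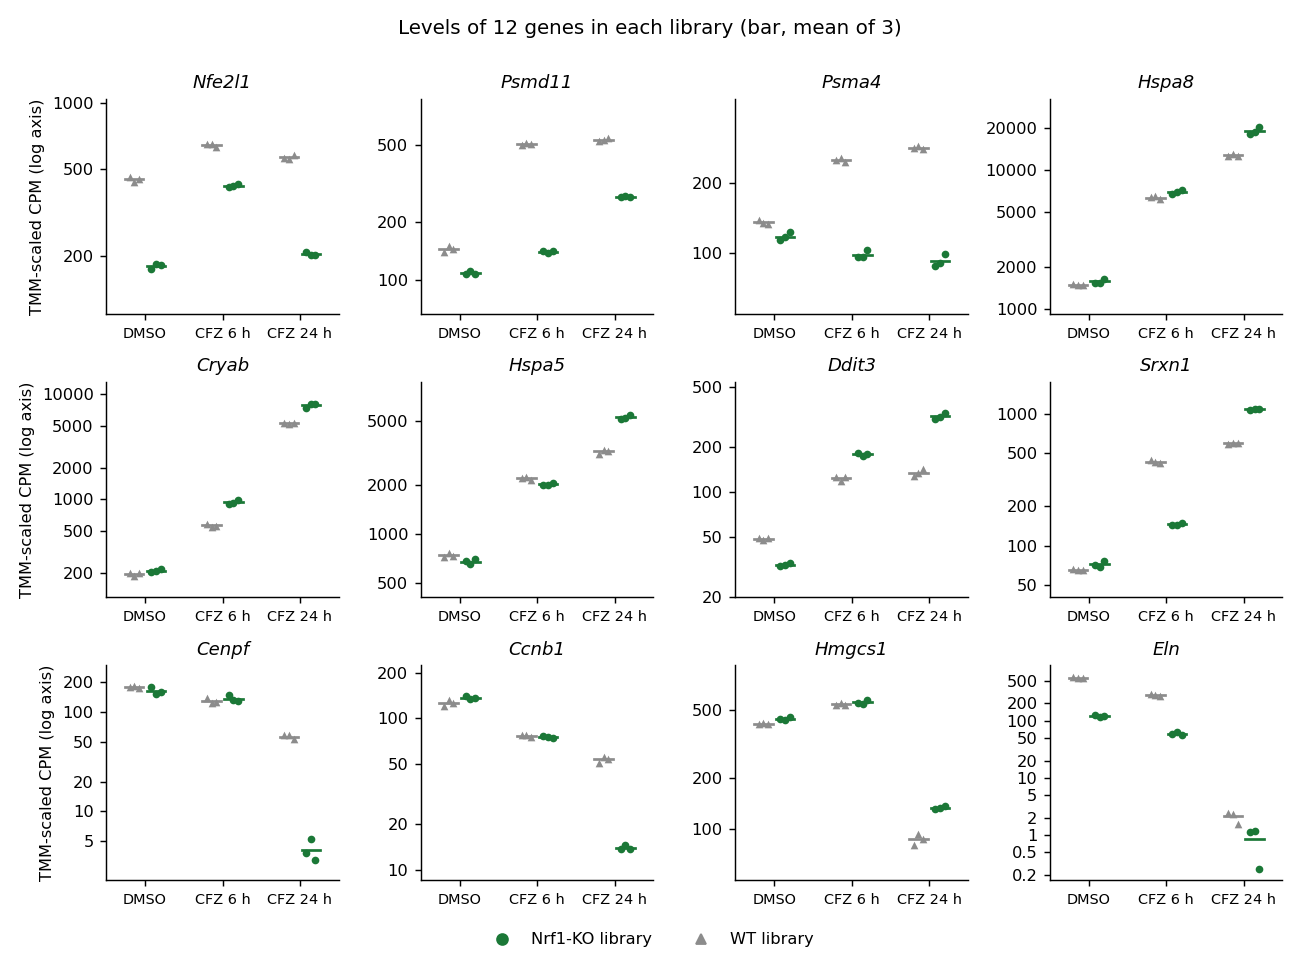
TMM-scaled CPM (log y axes) of 12 genes in each Nrf1-KO library (green circles) and WT library (grey triangles) in DMSO and after 6 h and 24 h of 200 nM CFZ, with a bar at the mean of 3. In Nrf1-KO cells Psmd11 reached 269 to 273 CPM and Psma4 stayed under its DMSO level, while Cryab climbed to between 7415 and 8066 CPM and Cenpf dropped to between 3.23 and 5.27 CPM.

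Genes of the ER moved both ways. Of 40 genes of ER folding, translocation and ER-associated degradation 21 were higher, 13 lower and 6 did not pass, shares of 52.5% and 32.5% that lie near the 44.4% and 41.1% of all genes, and the median of 0.18 turned to -0.002 with total counts alone, with 18 higher and 19 lower. Hspa5 stood at 677, 650.3 and 698 CPM in DMSO and 5131, 5204 and 5425 CPM after CFZ (log2 fold change 2.96, SE 0.037, edgeR adjusted p = 2.54e-34), Hyou1, the ER member of the HSP110 family, rose from 97.5 ± 3.66 to 447 ± 10.6 CPM (log2 fold change 2.2, edgeR adjusted p = 2.7e-31) and Dnajb9, an HSP40 of the ER that restrains IRE1, from 8.51 ± 1.23 to 31.9 ± 2.17 CPM (log2 fold change 1.89, edgeR adjusted p = 3.56e-19). Herpud1, a scaffold of the ER ubiquitin ligase complex, stood at 168, 169.6 and 173 CPM in DMSO and 161, 170.3 and 165 CPM after CFZ, did not pass (log2 fold change -0.04, SE 0.0319, edgeR adjusted p = 0.214) and overlapped between groups, but was called lower with upper-quartile scaling (-0.151), with total counts alone (-0.225), with no expression filter (-0.092) and without CFZ replicate 2 (-0.1). Sil1, the exchange factor of BiP, fell from 39.9 ± 3.21 to 14.5 ± 0.543 CPM (log2 fold change -1.46, edgeR adjusted p = 9.95e-19). Of 11 UPR sensors and membrane-bound factors 4 were higher and 7 lower. Ern1, which encodes the sensor IRE1, rose from 14.8 ± 0.16 to 58.6 ± 2.76 CPM (log2 fold change 1.98, SE 0.0553, edgeR adjusted p = 4.7e-25). Xbp1, whose RNA IRE1 splices, was slightly lower with overlapping groups (log2 fold change -0.09, edgeR adjusted p = 0.0268) and did not pass without DMSO replicate 3 (-0.071, adjusted p = 0.117), and Creb3l2, a membrane-bound factor of secretory capacity, fell from 93.9 ± 4.36 to 39.9 ± 3.3 CPM.

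The ATF4-CHOP axis moved in both directions. Of 21 genes 15 were higher, 10 at least 2-fold, and 6 lower, 3 at least 2-fold (median 0.78). Ddit3, which encodes CHOP, stood at 32, 32.9 and 33.8 CPM in DMSO and 306, 318 and 338 CPM after CFZ (log2 fold change 3.28, SE 0.0447, edgeR adjusted p = 2.56e-33), and Ppp1r15a, the phosphatase subunit GADD34 that reverses the stress response, at 17.9, 20.2 and 21 CPM in DMSO and 356, 359 and 369 CPM after CFZ (log2 fold change 4.18, SE 0.0472, edgeR adjusted p = 1.61e-35). Atf4, whose protein is set mainly by translation, rose from 640.3 ± 20.5 to 819 ± 31.1 CPM (log2 fold change 0.35, edgeR adjusted p = 2.83e-11). Chac1, which degrades glutathione, rose from 27 ± 0.86 to 71.5 ± 0.973 CPM, Sesn2, a stress-induced inhibitor of mTORC1, from 32.6 ± 0.892 to 116 ± 6.41 CPM and Trib3, a pseudokinase that restrains ATF4 and AKT, from 49 ± 0.789 to 66 ± 2.3 CPM. Gdf15, a stress hormone, was low, with 4 counts in DMSO and 28 after CFZ in all. Atf5, a relative of ATF4, fell from 351 ± 6.54 to 74.9 ± 1.99 CPM (log2 fold change -2.23, SE 0.0361, edgeR adjusted p = 2.28e-31).

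Amino acid genes that ATF4 is known to drive did not follow as a group. Of 16 genes of serine, asparagine, proline and one-carbon synthesis 6 were higher and 8 lower (median -0.15), and with total counts or upper-quartile scaling 3 were higher. Asns, asparagine synthetase, fell from 383 ± 2.82 to 313 ± 7.27 CPM (log2 fold change -0.29, edgeR adjusted p = 1.16e-09), Phgdh, the entry enzyme of serine synthesis, fell from 363 ± 14.2 to 239 ± 12.5 CPM (log2 fold change -0.60, edgeR adjusted p = 3.14e-15) with 37.3% of its stretches shared with pseudogenes, and Got1, the cytosolic aspartate aminotransferase, rose from 69.6 ± 1.67 to 119.7 ± 2.0 CPM. Of 12 amino acid transporters 8 were higher and 2 lower. Slc7a11, the cystine importer xCT, stood at 33.2, 32.5 and 34.5 CPM in DMSO and 409, 384 and 349 CPM after CFZ (log2 fold change 3.5, SE 0.0585, edgeR adjusted p = 4.88e-31), while Slc38a4, a transporter of neutral amino acids, fell from 199 ± 0.648 to 79.5 ± 6.31 CPM. Of 20 cytosolic tRNA synthetases 13 were higher and 4 lower, all by less than 2-fold, from Wars (0.96) to Mars (-0.81).

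NRF2-type antioxidant genes, which buffer oxidants and make glutathione, rose for the most part. Of 27 genes 20 were higher, 14 at least 2-fold, and 5 lower (median 1.06). Hmox1, the heme-degrading enzyme, stood at 45.7, 47.5 and 52.5 CPM in DMSO and 938, 921 and 909.7 CPM after CFZ (log2 fold change 4.24, SE 0.0438, edgeR adjusted p = 1.99e-36), and Srxn1, which repairs overoxidized peroxiredoxins, at 71.4, 68.9 and 76.4 CPM in DMSO and 1074, 1083 and 1084 CPM after CFZ (log2 fold change 3.9, SE 0.0373, edgeR adjusted p = 4.28e-37). Gclm, the modifier subunit of the enzyme that limits glutathione synthesis, rose from 53 ± 0.23 to 143 ± 5.8 CPM and Nqo1, a quinone reductase, from 95.9 ± 1.49 to 137 ± 3.0 CPM. Gstm1, a glutathione transferase, fell from 132 ± 4.36 to 42 ± 1.11 CPM (log2 fold change -1.64, edgeR adjusted p = 1.24e-25).

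Genes of autophagy, which delivers cargo to lysosomes, rose as well. Of 20 autophagy genes, which span receptors, ATG8 proteins and the core machinery that builds the autophagosome, 16 were higher and 2 lower (median 0.87). Sqstm1, the receptor p62 for ubiquitin-tagged cargo, stood at 401, 411 and 418 CPM in DMSO and 2704, 2735 and 2725 CPM after CFZ (log2 fold change 2.73, SE 0.0367, edgeR adjusted p = 1.86e-33). Gabarapl1, an ATG8 protein, rose from 82.1 ± 5.37 to 252 ± 12.7 CPM and Map1lc3b, or LC3B, from 239 ± 3.71 to 337 ± 19.3 CPM, while their relative Gabarap fell from 329.5 ± 13.2 to 252 ± 13.4 CPM. Of 28 lysosomal genes 19 were higher and 4 lower, and with total counts alone 17 and 9. Npc1, the cholesterol exporter of the lysosome, rose from 45.8 ± 2.88 to 192 ± 14.4 CPM (log2 fold change 2.08, SE 0.0532, edgeR adjusted p = 4.68e-26). Tfeb, a master factor of lysosomal genes, fell from 13.5 ± 2.21 to 2.61 ± 0.0625 CPM (log2 fold change -2.34, SE 0.131, edgeR adjusted p = 4.94e-17). Ctsd, the protease cathepsin D, stood at 666, 676 and 712 CPM in DMSO and 687, 724 and 746 CPM after CFZ and did not pass (log2 fold change 0.07, edgeR adjusted p = 0.101). Its value was -0.113 with total counts alone.

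Mitosis genes all fell. All 30 mitosis and kinetochore genes were lower, each at least 2-fold, their median log2 fold change was -3.23, and no library of one group overlapped the other in any of them, against 40.5% of all genes. Their summed level ran from 4550 to 4830 CPM in DMSO and from 542 to 582 CPM after CFZ. Cdk1, the kinase of mitotic entry, stood at 153, 155 and 158 CPM in DMSO and 30.1, 31.7 and 34.1 CPM after CFZ (log2 fold change -2.28, SE 0.0479, edgeR adjusted p = 2.43e-28), and its partner Ccnb1, cyclin B1, at 140.0, 134 and 136 CPM in DMSO and 13.7, 14.5 and 13.6 CPM after CFZ (log2 fold change -3.29, SE 0.0503, edgeR adjusted p = 5.3e-32), with 28.6% of its stretches shared with pseudogenes. Plk1 stood at 87.4, 84.3 and 80.8 CPM in DMSO and 2.89, 2.83 and 3.11 CPM after CFZ (log2 fold change -4.83, SE 0.0786, edgeR adjusted p = 2.45e-31) and Nuf2, a kinetochore subunit that binds microtubules, at 86.4, 81 and 82.9 CPM in DMSO and 2.25, 2.83 and 2.54 CPM after CFZ (log2 fold change -5.02, SE 0.0771, edgeR adjusted p = 5.85e-32). Cenpf, whose transcript is long, fell from between 154 and 179 CPM to between 3.23 and 5.27 CPM. Mki67, the proliferation antigen Ki-67, fell from 495 ± 48.5 to 26 ± 3.43 CPM and Top2a, the topoisomerase that untangles chromosomes, from 498 ± 39.3 to 59.1 ± 3.33 CPM.

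Genes of S phase fell for the most part. Of 39 DNA replication and G1/S genes 31 were lower, 12 at least 2-fold, 2 higher and 6 did not pass (median -0.70). Tk1, thymidine kinase, stood at 113, 114 and 109 CPM in DMSO and 6.2, 7.99 and 7.55 CPM after CFZ (log2 fold change -3.93, SE 0.0634, edgeR adjusted p = 1.99e-31) and Rrm2, the small subunit of ribonucleotide reductase, fell from 122 ± 1.5 to 23.4 ± 0.863 CPM (log2 fold change -2.39, edgeR adjusted p = 1.11e-26). Mcm5, of the replicative helicase, fell from 187 ± 6.69 to 96.3 ± 3.86 CPM and Pcna, the sliding clamp, from 174 ± 1.48 to 117 ± 2.45 CPM. Of 68 clustered histone genes 8 passed the filter on low counts and 7 of these were lower. Most replication histone transcripts are known to lack the poly(A) tail by which mRNA kits select RNA. Of 12 CDK inhibitors, D-type cyclins and G1 regulators 2 were higher and 10 lower. Cdkn1a, the inhibitor p21, stood at 90.2, 90.1 and 90.2 CPM in DMSO and 268, 266 and 256 CPM after CFZ (log2 fold change 1.55, SE 0.0329, edgeR adjusted p = 3.29e-28), Ccnd1, cyclin D1, fell from 259.7 ± 5.82 to 80.8 ± 6.4 CPM (log2 fold change -1.68, edgeR adjusted p = 6.02e-25) and Cdkn2d, the inhibitor p19, fell from 18.8 ± 0.691 to 2.66 ± 0.19 CPM.

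Targets of p53, a guardian factor of arrest and death, and genes of cell death moved both ways. Of 16 genes of p53 and its targets, Trp53 included, 12 were higher and 2 lower (median 0.54). Mdm2, the ubiquitin ligase that limits p53, stood at 79.3, 84.9 and 84.5 CPM in DMSO and 589, 576 and 593 CPM after CFZ (log2 fold change 2.82, SE 0.0342, edgeR adjusted p = 1.4e-34) and Sesn1, another sestrin, fell from 81.2 ± 4.86 to 56.1 ± 1.46 CPM. Of 13 BCL2-family genes 7 were higher and 5 lower. Pmaip1, the pro-death BH3 protein NOXA, stood at 4.46, 4.96 and 3.82 CPM in DMSO and 33.8, 33.8 and 33.5 CPM after CFZ (log2 fold change 2.96, SE 0.0843, edgeR adjusted p = 7.7e-25) and Mcl1, the survival protein it binds, rose from 148 ± 1.92 to 252 ± 12.4 CPM. Bcl2l11, the BH3 protein BIM, rose from 13.3 ± 1.6 to 22.6 ± 0.292 CPM (log2 fold change 0.76, edgeR adjusted p = 1.67e-10), Bmf, a BH3 protein released from the cytoskeleton, fell from 14.8 ± 0.44 to 2.21 ± 0.385 CPM (log2 fold change -2.72, edgeR adjusted p = 2.01e-20), and Bbc3, the BH3 protein PUMA, overlapped between groups and did not pass (log2 fold change -0.12, edgeR adjusted p = 0.169), although it was called lower with upper-quartile scaling (-0.229), with total counts alone (-0.304) and without CFZ replicate 2 (-0.205). Of 25 death receptors, caspases and their inhibitors 15 were higher and 6 lower. Tnfrsf10b, the death receptor DR5, rose from 33.6 ± 0.658 to 97.8 ± 3.55 CPM, Casp4, an inflammatory caspase, rose from 2.52 ± 0.207 to 11 ± 1.14 CPM and Xiap, an inhibitor of caspases, fell from 65.6 ± 1.5 to 24.7 ± 1.42 CPM.

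Early response and inflammatory genes rose in part. Of 21 AP-1 and immediate early genes 15 were higher and 5 lower. Jun, a core AP-1 subunit, rose from 122 ± 10.2 to 312 ± 14.3 CPM and Fosl1, which encodes FRA1, from 14.8 ± 0.265 to 54.2 ± 2.51 CPM, although 57.2% of the exonic bases of Fosl1 face the opposite-strand gene Ccdc85b. Egr1, a growth-factor-induced zinc finger factor, fell from 25.8 ± 2.67 to 15.9 ± 2.21 CPM and Klf2, a shear-induced factor, from 45.5 ± 2.05 to 16.6 ± 1.4 CPM. Of 15 dual-specificity phosphatase and Sprouty genes 11 were higher and 3 lower, from Dusp4 (5.31) to Dusp7 (-1.51). Of 20 NF-kB pathway and target genes 13 were higher and 6 lower. Ptgs2, the prostaglandin enzyme COX-2, stood at 39.2, 40.7 and 38.5 CPM in DMSO and 757, 756 and 694 CPM after CFZ (log2 fold change 4.22, SE 0.0546, edgeR adjusted p = 6.52e-34). Ccl2, a chemokine for monocytes, rose from 3.89 ± 0.45 to 56 ± 3.35 CPM (log2 fold change 3.88, SE 0.0865, edgeR adjusted p = 1.19e-27), while Cxcl12, a chemokine that fibroblasts make at rest, fell from 37.4 ± 2.29 to 1.45 ± 0.332 CPM (log2 fold change -4.68, SE 0.115, edgeR adjusted p = 1.66e-26). Icam1, an adhesion molecule, had no count in DMSO and 50 after CFZ, at least 19.8-fold higher against the floor of 3 counts.

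The matrix program of the fibroblasts fell. Of 17 collagen genes 15 were lower and 1 was higher (median -1.44), and of 23 other matrix proteins 18 were lower and 5 higher (median -1.29). Col1a1, the main chain of type I collagen, stood at 6971, 5809 and 4721 CPM in DMSO and 946, 798 and 676 CPM after CFZ (log2 fold change -2.85, SE 0.0982, edgeR adjusted p = 1.24e-22) and Col3a1 fell from 1338 ± 46.9 to 383 ± 16 CPM. The DMSO libraries of Col1a1 spread widely, but none came near a treated library. The 1 collagen higher, Col6a3 (log2 fold change 0.33, edgeR adjusted p = 0.0066), overlapped between groups and did not pass by DESeq2, with the other scalings, or without DMSO replicate 2 (0.25, adjusted p = 0.0594), DMSO replicate 3 (0.231, adjusted p = 0.0708) or CFZ replicate 1 (0.126, adjusted p = 0.225). Lox, the enzyme that cross-links collagen and elastin, fell from 1757 ± 14.7 to 323 ± 19.9 CPM (log2 fold change -2.45, SE 0.0365, edgeR adjusted p = 2.74e-32), Postn, periostin, fell from 15.9 ± 1.23 to 10.9 ± 0.828 CPM and Fn1, fibronectin, from 6963 ± 1360 to 4470 ± 646 CPM. Nid1 was the largest exception, at 757, 635 and 609 CPM in DMSO and 9414, 8761 and 7935 CPM after CFZ (log2 fold change 3.71, SE 0.0634, edgeR adjusted p = 9.41e-31). Of 16 matrix proteases, TIMPs and plasminogen genes 7 were higher and 8 lower. Adamts1, a protease of proteoglycans, rose from 122 ± 7.81 to 728 ± 51.6 CPM (log2 fold change 2.58, SE 0.0451, edgeR adjusted p = 1.65e-30), and Mmp13, a collagenase, had 1 count in DMSO and 69 after CFZ, a ratio of 81.8 with a 95% counting interval from 14.2 to 3280.

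Targets of YAP and SRF, which follow the tension of the actin skeleton, fell with the matrix. Of 19 genes 16 were lower and 2 higher (median -0.99). Acta2, smooth muscle actin, stood at 258, 244 and 234 CPM in DMSO and 26.1, 25.1 and 29.6 CPM after CFZ (log2 fold change -3.19, SE 0.0546, edgeR adjusted p = 9.44e-31), Ctgf, a matricellular YAP target, at 104, 103 and 100.2 CPM in DMSO and 10.9, 12.3 and 11 CPM after CFZ (log2 fold change -3.16, SE 0.0856, edgeR adjusted p = 2.05e-25), and Tagln, the actin-binding protein transgelin, fell from 64.5 ± 1.11 to 23.2 ± 1.19 CPM, with 67.9% of its exonic bases facing opposite-strand genes. Cyr61, a relative of Ctgf and also a YAP target, rose from 45.7 ± 2.36 to 99.6 ± 4.17 CPM (log2 fold change 1.13, edgeR adjusted p = 1.52e-17). S100a4, a calcium-binding marker of fibroblasts, fell from 2132 ± 114 to 148 ± 18.3 CPM (log2 fold change -3.85, edgeR adjusted p = 1.21e-31), with 50.9% of its stretches shared with another listed gene.

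Most sterol and respiratory chain genes fell. Of 29 sterol and fatty acid synthesis genes 25 were lower, 14 at least 2-fold, and 3 higher (median -0.95). Hmgcs1, an early enzyme of sterol synthesis, stood at 438, 434 and 453 CPM in DMSO and 132, 134 and 137 CPM after CFZ (log2 fold change -1.72, SE 0.038, edgeR adjusted p = 9.78e-28), and Sqle, an oxygenase of the same pathway, fell from 466 ± 13.5 to 195 ± 3.43 CPM (log2 fold change -1.26, edgeR adjusted p = 2.55e-24), whereas Srebf1, which encodes SREBP1, rose from 76 ± 3.12 to 102 ± 6.57 CPM. Of 77 nuclear-encoded respiratory chain genes 65 were lower, 12 at least 2-fold, and 2 higher (median -0.55), from Uqcr10, of complex III (-1.63), to Cox7a2l, a factor of supercomplexes (1.27). Of 13 glycolytic enzymes 9 were lower and 4 higher. Ldha, lactate dehydrogenase A, stood at 576, 578 and 587 CPM in DMSO and 141, 152 and 155 CPM after CFZ (log2 fold change -1.96, SE 0.0365, edgeR adjusted p = 8.74e-30) and Hk2, hexokinase 2, rose from 28.9 ± 1.99 to 53.5 ± 4.87 CPM.

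Ribosomal protein genes rose for the most part. Of 76 genes 73 were higher, 4 at least 2-fold, and 2 lower (median 0.59), and with total counts alone 68 and 4 (median 0.41). Their summed level went from between 52200 and 52900 CPM to between 74800 and 87500 CPM, with CFZ replicates further apart than DMSO replicates. Many ribosomal protein genes have near-identical pseudogenes, and how the counting split their reads is not given in the sources used here. Rpl34, 1 of the 2 lower, stood at 3.74, 4.07 and 4.2 CPM in DMSO and 2.25, 2.27 and 2.47 CPM after CFZ, and Rpl26 is listed at 0 in every library. Of 28 ribosome biogenesis genes 21 were higher and 5 lower. Npm1, nucleophosmin, rose from 1563 ± 59.5 to 3462 ± 229 CPM and Ncl, nucleolin, from 1512 ± 11.3 to 3283 ± 117 CPM, while Ubtf, a factor of RNA polymerase I, fell from 217 ± 4.77 to 97.3 ± 2.49 CPM (log2 fold change -1.16, edgeR adjusted p = 3.68e-24). Of 8 genes of BET bromodomain proteins and their elongation partners 6 were higher and 1 lower. Brd2 rose from 392 ± 1.82 to 842 ± 22.3 CPM (log2 fold change 1.1, SE 0.0324, edgeR adjusted p = 1.78e-24), Larp7, which holds the elongation factor P-TEFb inactive, fell from 65 ± 3.54 to 47.9 ± 1.78 CPM, and Hexim1, the inhibitor of P-TEFb, did not pass (log2 fold change 0.08, edgeR adjusted p = 0.0598) and stood at -0.1 with total counts alone.

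Much of the response formed after 6 h. Between 6 h and 24 h of CFZ 4550 genes were higher at 24 h (38.7%) and 4507 lower (38.3%), with 6.56% at least 2-fold higher, 9.22% at least 2-fold lower, 1.71% at least 4-fold higher and 2.19% at least 4-fold lower, and the libraries compared here share no control. All 30 mitosis genes were lower at 24 h than at 6 h (median -2.56). Against DMSO the same genes stood at a median of -0.56 at 6 h and -3.23 at 24 h, values that share the DMSO libraries. Cenpf was -0.25 at 6 h and -5.29 at 24 h with a difference of -5.05, SE 0.0969, edgeR adjusted p = 7.98e-29, whereas Plk1 was -1.25 at 6 h. Sterol and fatty acid synthesis genes were late as well, with 25 of 29 lower at 24 h than at 6 h (median -1.23), and Hmgcs1 went from 0.32 at 6 h to -1.72 at 24 h. Collagens (15 of 17 lower at 24 h), other matrix proteins (18 of 23) and YAP and SRF targets (18 of 19) did the same, and Acta2 went from 0.48 to -3.19.

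Other lists grew or receded. Ribosomal protein genes were higher at 24 h than at 6 h in 74 of 76 cases (median 0.61), NRF2-type genes in 21 of 27, autophagy genes in 16 of 20 and lysosomal genes in 21 of 28. Srxn1 went from 1.0 to 3.9, with a difference between the times of 2.9. Cryab went up from 2.15 to 5.21, while the HSP70 co-chaperone Bag3 receded from 2.59 to 1.63 and Dnajb1 from 3.88 to 3.24. In the ATF4-CHOP axis 14 of 21 genes were lower at 24 h than at 6 h and 5 higher. Trib3 receded from 2.06 to 0.43 and Chac1 from 2.82 to 1.41, but Ddit3 grew from 2.44 to 3.28 and Ppp1r15a from 2.8 to 4.18. Amino acid synthesis genes were lower at 24 h than at 6 h in 14 of 16 cases and higher in none. Nfe2l1 itself receded from 1.22 to 0.18.

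**Figure D4:**
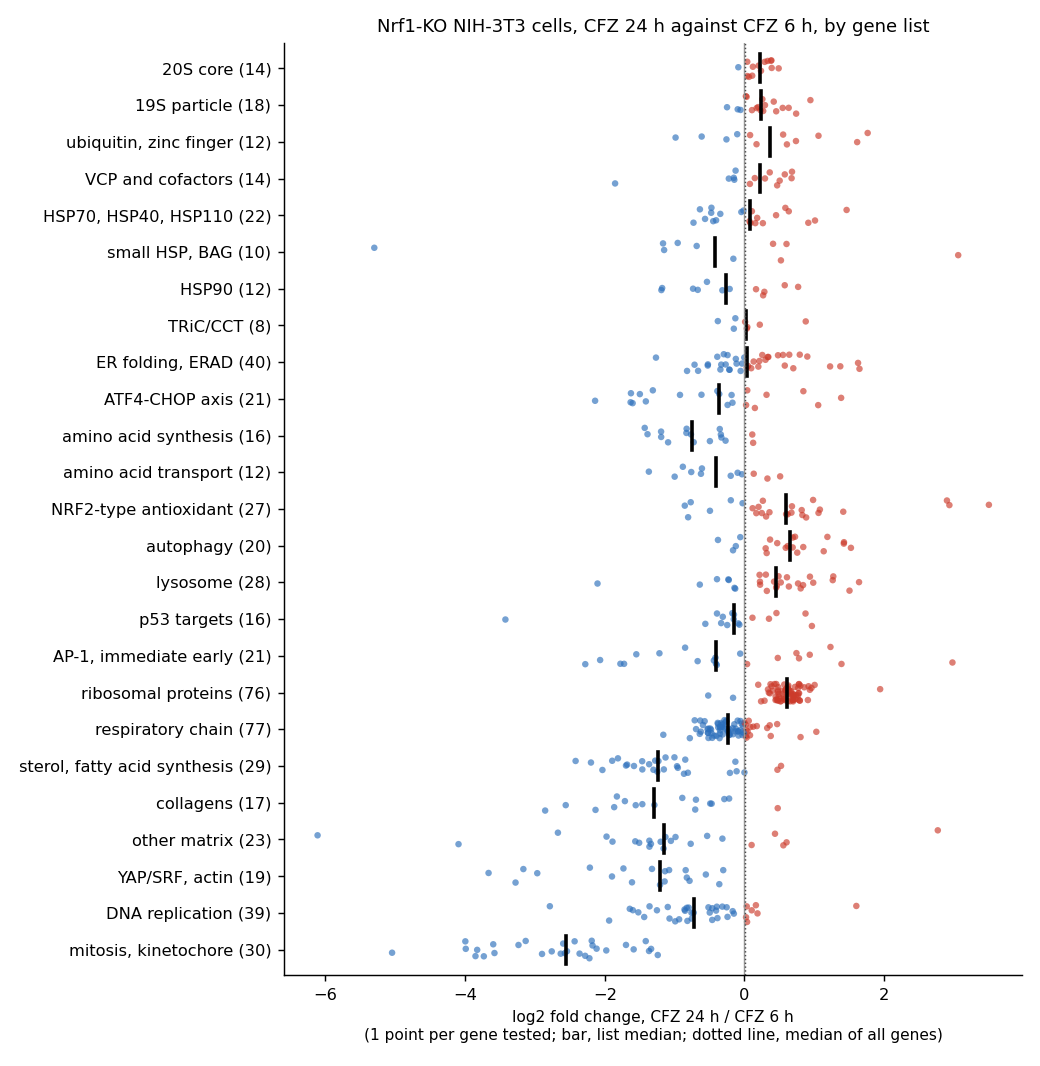
Each point is 1 gene tested, its log2 fold change between 24 h and 6 h of CFZ in Nrf1-KO cells on the x axis (red above 0, blue below), in the same 25 gene lists, with list medians as bars and the median of all genes dotted. Mitosis genes lie farthest left (median -2.56), and ribosomal protein, NRF2-type and autophagy lists have medians above 0.5.

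The response at 24 h was set against that of WT cells to ask which genes answer differently in the knockout line. The interaction of line and CFZ was called for 3498 genes with a more positive response in Nrf1-KO cells (29.7%) and 3532 with a more negative one (30.0%), which makes 59.8% in all. With total counts alone 2828 were more positive and 4236 more negative. The difference was at least 2-fold for 4.07% and 4.53% of genes and at least 4-fold for 94 (0.799%) and 92 (0.782%). All 14 core genes and all 18 genes of the 19S particle responded less in Nrf1-KO cells. WT cells had medians of 1.33 and 1.6, beside 0.25 and 0.40. The interaction was -0.56, SE 0.0464, edgeR adjusted p = 5.01e-12 for Psmd11, -0.55 for Psmd14, -1.41, SE 0.0563, edgeR adjusted p = 1.27e-19 for Psma4 and -1.44 for Psmc4. VCP and its cofactors had a more negative response in 10 of 14 cases, among them Vcp (-0.72, SE 0.0535, edgeR adjusted p = 5.77e-13) and Ufd1l (-0.87, SE 0.0601, edgeR adjusted p = 9.57e-14). Keap1 was 0.61 in WT and -0.95 in Nrf1-KO cells (-1.56, SE 0.0654, edgeR adjusted p = 4.26e-19).

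Mitosis genes fell further in Nrf1-KO than in WT cells in all 30 cases (WT median -1.67, Nrf1-KO median -3.23). Cenpf was -1.67 in WT and -5.29 in Nrf1-KO cells (-3.63, SE 0.126, edgeR adjusted p = 4.56e-21), and Hmmr, a spindle and hyaluronan-binding protein, -1.48 and -5.23 (-3.74, SE 0.0972, edgeR adjusted p = 4.44e-24). Respiratory chain genes had a more negative response in 61 of 77 cases, and YAP and SRF targets in 13 of 19. This counts smaller rises as well as larger falls. In WT cells 26 respiratory chain genes were higher and 39 lower (median -0.12). Cyr61 rose less in Nrf1-KO cells (1.13 beside 2.94). The ATF4-CHOP axis had a more positive response in 15 of 21 cases and a more negative one in 2. Such counts hold smaller falls as well as larger rises. In WT cells 9 genes of the axis were higher and 8 lower (median 0.11), beside 15 and 6 in Nrf1-KO cells. Amino acid transporters had a more positive response in 10 of 12. In WT cells 3 of them were higher and 8 lower (median -0.29), beside 8 and 2 in Nrf1-KO cells. Slc7a11 rose in both lines, by 3.5 in Nrf1-KO and 1.96 in WT cells (1.54, SE 0.0823, edgeR adjusted p = 1.64e-16). Amino acid synthesis genes responded more, or fell less, in 13 of 16, and Pycr1, which makes proline, was -1.01 beside -2.51. Ribosomal protein genes had a more positive response in 68 of 76 cases, with a median difference of 0.31 over the list.

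Some lists had members on both sides. Of 22 HSP70-type genes 6 had a more positive response and 10 a more negative one. Hspa1b was 3.43 in Nrf1-KO and 1.55 in WT cells (1.89, SE 0.0717, edgeR adjusted p = 3.98e-20). Of 27 NRF2-type genes 6 had a more positive response and 13 a more negative one. Nqo1 was 0.51 in Nrf1-KO and -0.53 in WT cells (1.05, SE 0.054, edgeR adjusted p = 7.28e-17), and Hmox1 4.24 and 4.43. Bcl2l11 was 0.76 in Nrf1-KO and -1.18 in WT cells (1.94, SE 0.12, edgeR adjusted p = 6.02e-15), and Cdkn1a 1.55 and 0.34 (1.21, SE 0.0468, edgeR adjusted p = 5.76e-20). For Bag3 the difference did not pass (0.05, SE 0.055, edgeR adjusted p = 0.458), nor for Dnajb9 (0.22, SE 0.129, edgeR adjusted p = 0.142) or Sqstm1 (-0.09, SE 0.049, edgeR adjusted p = 0.112), which does not show that the lines respond alike.

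**Figure D5:**
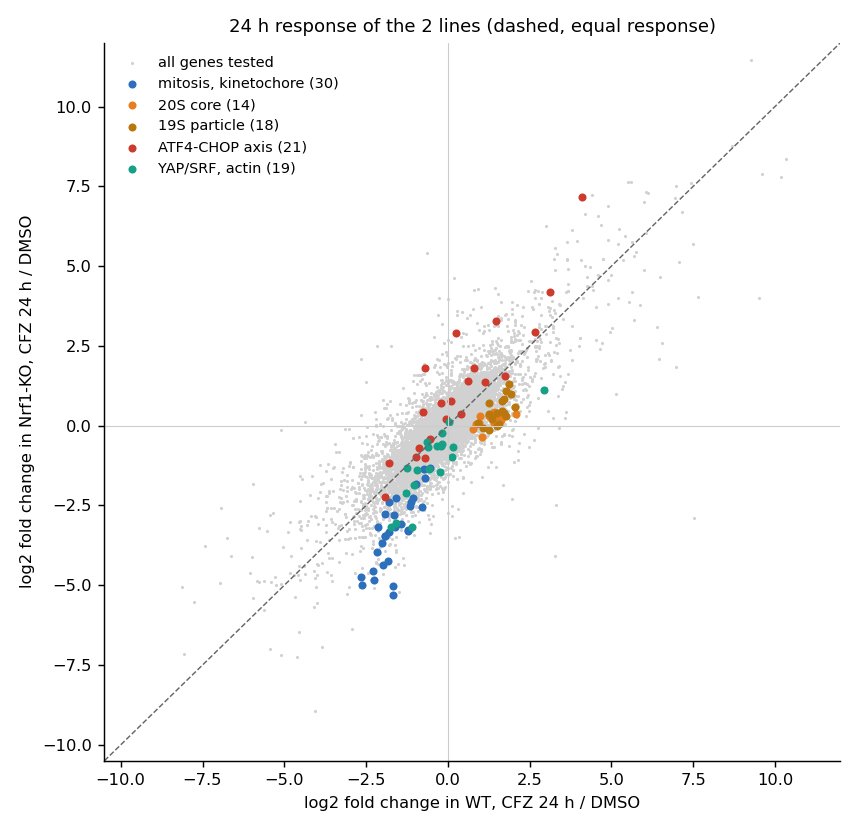
Each point is 1 gene tested, with its log2 fold change of CFZ 24 h over DMSO in WT cells on the x axis and in Nrf1-KO cells on the y axis, and gene lists in color; the dashed line marks equal responses. All 14 core and 18 regulatory proteasome genes lie below the line, with Psmb5 at 0.77 in WT and -0.11 in Nrf1-KO cells, and so do all 30 mitosis genes.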

How the data were processed

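The authors made stranded mRNA libraries (KAPA), sequenced them as paired reads and used the RNA Express app, which holds STAR and DESeq2. They deposited whole read counts per gene symbol for 18 libraries. Tool versions, genome build, annotation and the use of strand in counting are not given in the sources used here. Total counts per library ran from 8333148 to 23917081, and depth limits the low genes. Spreadsheet software had changed 27 symbols to dates, and these rows were kept under the names listed.

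From these counts, edgeR 4.0.16 (R 4.3.3) fitted 11762 of 23420 genes in all 18 libraries as 6 groups (filterByExpr with a minimum count of 10 and a minimum total of 15, TMM scaling, quasi-likelihood test, Benjamini-Hochberg adjustment over all genes tested). The 3 comparisons were CFZ 24 h against DMSO, 24 h against 6 h, and the interaction with WT. The samples' groups came from their labels. The p-values measure the spread between these libraries. The method was tested on simulated counts in which few genes changed, evenly up and down. That setting cannot check the scaling where most genes change, as they did here. Errors given as ± are SD of 3 libraries.

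The members and gene lists were chosen with earlier results of these data known. Named genes were Nfe2l1, the 10 largest rises and 10 largest falls with an adjusted p under 0.05, groups that do not overlap and a mean count of at least 50, chosen members and the extremes of each list, and the 6 largest interactions each way. The symbol Nrf1 in the table is nuclear respiratory factor 1, a different gene. Of 192 named genes 186 matched GENCODE (GRCm38), from which overlaps with other genes and the share of 100-base stretches found in other transcripts were computed. Promoters came from RefSeq (GRCm38.p6), without those of chromosome 18. Alternatives were DESeq2 1.42.0, other scalings and filters, a 2-fold minimum, a replicate block, a fit of the compared groups only and leaving out each library. Some genes are not reported here.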

Additional observations from a re-analysis of the deposited data

Results flagged for a closer look

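For 22 named genes the response to 24 h of CFZ differed at least 4-fold between Nrf1-KO and WT cells by the edgeR interaction test (difference of log2 fold changes, Nrf1-KO minus WT, adjusted p over all genes tested). The matrix and surface genes went both ways. Adamts1, a protease of proteoglycans, had 6903 counts in the 3 Nrf1-KO DMSO libraries and 34889 after CFZ, against 8337 and 6321 in WT, a difference of 2.7. Col3a1, a fibrillar collagen, fell less in Nrf1-KO cells (2.0), as did Postn, periostin (2.09), and Smoc2, a matricellular protein (3.21). After CFZ Smoc2 had 36 counts in Nrf1-KO and 5 in WT cells, so its difference rests on few counts. Sparcl1, an antiadhesive matrix protein, had 22 counts after CFZ in Nrf1-KO and none in WT cells, so its fitted difference of 3.07 is no bound. Ctgf, a YAP target, fell further in Nrf1-KO cells (-2.07), as did Igf1, the growth factor (-3.1), and Galnt15, an enzyme of O-linked sugar chains (-2.64), both with few counts after CFZ.

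The mitosis genes Ccnb1 (-2.07), Cenpf (-3.63), Hmmr (-3.74), Mki67 (-2.43), Nuf2 (-3.34) and Plk1 (-2.57) fell further in Nrf1-KO cells, and so did Ankle1, a nuclease (-3.43, 7 counts after CFZ). Atf3, the stress factor, rose more (3.07), with 21204 counts after CFZ against 5785 in WT. Fos, an AP-1 subunit, rose in Nrf1-KO cells from 50 to 113 counts and went from 82 to 32 in WT (2.48). Bmf, a pro-death BH3 protein, fell less (2.61), and Mex3b, an RNA-binding protein, went from 505 to 1629 counts in Nrf1-KO and from 597 to 297 in WT cells (2.66). Krt16, a stress keratin, went from 18 to 306 counts in Nrf1-KO and from 208 to 328 in WT cells (3.36). Its difference rests on a low starting level in Nrf1-KO cells, while the counts after CFZ were similar.

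Calr3, a calreticulin of the testis, rose less in Nrf1-KO cells, with 129 and 217 counts against 73 and 2150 in WT (-4.15). Prl2c2, proliferin, had 3 counts in WT cells in DMSO and 130 in Nrf1-KO cells, so its difference of -2.37 rests on a starting level near 0 and is no bound. Part of the reads of Prl2c2 (66.4% of its stretches of 100 bases) and Krt16 (24.3%) could come from close copies.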

How the results depend on the processing

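With a minimum change of 2-fold, 1347 genes were higher and 1790 lower after 24 h of CFZ, 479 and 533 had a more positive or more negative response in Nrf1-KO than in WT cells, and 772 and 1084 were higher or lower at 24 h than at 6 h. Every other alternative gave these 6 counts within 1.5 times. Leaving out 1 library gave between 4907 and 5184 higher and between 4749 and 4972 lower genes, DESeq2 gave 5002 and 4758, and total counts alone gave 4175 and 5857. The labels do not say whether the replicate numbers pair the samples. Deviations of same-numbered DMSO and CFZ libraries correlated at 0.0972, -0.0173 and 0.0755, which cannot decide it, since counting noise lowers such correlations. A fit with the replicate block called 5240 higher and 4851 lower.

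Reversals came with other scalings. With total counts alone the median of the proteasome activators, inhibitors and immunoproteasome list was -0.033, that of the ER folding list -0.002, and Nfe2l1 stood at -0.001. Ctsd was -0.039 with upper-quartile scaling and -0.113 with total counts alone, and Hexim1 -0.025 and -0.1. A scaling shifts all genes together, and in these data both shifts were downward. Over the lists 414 medians moved by less than the SD between replicates and 208 by more without a reversal, and 30 counts of higher and 16 of lower members moved by over 1.5 times. Of 192 named genes over all alternatives 2456 values kept their direction and their side of the threshold, 12 passed it newly and 14 no longer passed. The 14 were 6 of Col6a3 and values of Nfe2l1, Mt1, Mt2, Pomp, Xbp1 and Des among others. Des, a muscle filament protein, did not pass without CFZ replicate 3 (0.47, adjusted p = 0.0805). Other than these scalings, the cause was not tested. Depth limits genes with few counts in a group, where single counts set the fold.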

Other observations

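Clock genes moved both ways in Nrf1-KO cells after 24 h of CFZ. Of 14 genes 5 were higher and 9 lower, with a median log2 fold change of -0.47. Dbp, a rhythmic output factor of the clock, stood at 59, 63.8 and 63 CPM in DMSO and 2.32, 1.66 and 1.97 CPM after CFZ (log2 fold change -4.98, SE 0.098, edgeR adjusted p = 3.73e-29), and Cry1, a repressor of the clock, rose from 28.7 ± 1.23 to 67.6 ± 2.1 CPM (errors are SD, n = 3). The WT values were -5.26 for Dbp and 0.45 for Cry1, and the interaction passed for Cry1 (0.79, SE 0.0723, edgeR adjusted p = 5.38e-11) and not for Dbp (0.28, SE 0.269, edgeR adjusted p = 0.391).

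Of 6 metallothionein and zinc genes 4 were higher and 2 lower. Mtf1, the zinc-sensing factor that drives metallothioneins, rose from 37.8 ± 1.77 to 76.1 ± 1.84 CPM (log2 fold change 1.01, SE 0.0538, edgeR adjusted p = 1.6e-17), while Slc30a1, a zinc exporter, fell from 28.3 ± 2.2 to 22 ± 1.21 CPM. Mt1 and Mt2, which bind zinc and cadmium, were 0.27 and 0.21 on the log2 scale, and neither passed with total counts alone (0.085 and 0.03). Of 11 hypoxia genes 4 were higher and 7 lower, from Ndrg1, a stress-induced gene of differentiation, at 126, 124 and 130.4 CPM in DMSO and 459.5, 452 and 469.8 CPM after CFZ (log2 fold change 1.86, SE 0.0385, edgeR adjusted p = 1.6e-28), to Pdk1, the kinase that restrains pyruvate dehydrogenase, which fell from 43.5 ± 2.8 to 11.6 ± 1.22 CPM. Of 10 interferon genes tested 5 were higher and 4 lower at low levels. Ifit1 rose from 0.718 ± 0.184 to 2.98 ± 0.289 CPM and Ifit3 fell from 3.98 ± 0.413 to 1.04 ± 0.228 CPM, both interferon-induced RNA-binding proteins. Gpnmb, a lysosomal glycoprotein, fell from 136 ± 4.7 to 84.1 ± 2.51 CPM (log2 fold change -0.70, edgeR adjusted p = 1.7e-16). Cdh5, the cadherin of endothelial cells, rose from 0.181 ± 0.0717 to 3.4 ± 0.228 CPM (log2 fold change 4.22, edgeR adjusted p = 2.53e-14), and its part in other results was not tested.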
